A study of Caenorhabditis elegans with 21 samples.

Results

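The col genes of Caenorhabditis elegans, the numbered family of cuticle collagens, were followed across whole-worm RNA-seq of wild-type N2 adults under 6 treatments and in untreated controls. Members were taken by name and level: a WormBase ID joined to a symbol of the form col- and a number, with at least 1 FPKM (fragments scaled to transcript length and to the library's mapped total) in at least 3 of the 21 libraries. Of 156 col genes in the table, 128 met the rule and 28 did not, among 17492 genes that passed the same filter in all. The members just inside the limit were col-74, col-64 and col-105, and those just outside were col-187, col-132 and col-123, whose deciding values, the lowest of their top 3 libraries, were 0.953, 0.942 and 0.875 FPKM. The rule used no contrast between groups, but a gene of low level can pass it only through the group where it is high.

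All worms were synchronized N2, kept at 20 °C and taken as adults of day 1. Their food was OP50 bacteria, except that the starved worms had none for 15 h and the rpn-6 group was given RNAi food. The 7 groups, with 3 libraries each, were starvation (15 h without food), 200 µM fluphenazine, 200 µM cantharidin, 25 µM bortezomib, 10 µM bortezomib, RNAi against rpn-6, and untreated controls. Fluphenazine is a phenothiazine antipsychotic, cantharidin inhibits protein phosphatases, bortezomib inhibits the proteasome, and rpn-6.1 encodes a subunit of the proteasome's regulatory particle. Drugs were given from L4, the last larval stage, and RNAi food from L3, the stage before it. The labels name no vehicle control and no empty-vector RNAi control, and each library is whole worms, not epidermis. In such bulk RNA, fewer cells of a type and less RNA per cell cannot be told apart.

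The cuticle of C. elegans is an extracellular coat made mostly of small collagens, which the epidermis secretes. Each collagen is a triple helix of Gly-X-Y repeats that is hydroxylated, trimmed by proteases, cross-linked and laid down in a new cuticle. At every molt the genes are transcribed in successive waves, some before, some during and some after the old cuticle is shed, and some members serve 1 stage: col-19 and col-7 are adult collagens, col-17 a larval collagen and col-2 a dauer collagen. Most col genes have no mutant phenotype of their own, whereas furrow collagens such as dpy-7 and dpy-10 shape the body and carry other names.

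The labels give no read totals. Depth relative to control 4, estimated from the steps between low values, ran from 0.943 in cantharidin 9 to 1.499 in rpn-6 RNAi 4, and was 1.108 in starvation 3, 0.962 in fluphenazine 4 and 1.026 in control 7. The RNAi target, rpn-6.1, stood at 114.8, 121.7 and 127.1 FPKM in the rpn-6 RNAi libraries and at 167.9, 168.2 and 130.2 FPKM in controls, so every rpn-6 RNAi library was below every control. The starvation, fluphenazine and cantharidin libraries, which had no such RNAi, ran from 105.0 to 153.1 FPKM and overlapped both groups. Replicates of a group may be separate cultures or technical repeats, which the labels do not say, so the p-values measure only the spread between these libraries.

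Together the 128 members made up between 1.89% (fluphenazine 4) and 6.74% (control 7) of all FPKM in a library. The share was 5.69%, 4.12% and 3.39% in starvation 1, 2 and 3. It was 4.29%, 1.89% and 4.46% in fluphenazine 2, 4 and 9, and 4.57%, 5.26% and 3.70% in cantharidin 1, 3 and 9. No ordering of these 3 groups follows, because their libraries overlap. Bortezomib at 25 µM had 4.75%, 5.15% and 6.19%, and bortezomib at 10 µM had 3.44%, 3.83% and 3.68%, so the doses did not overlap. The rpn-6 RNAi libraries had 4.62%, 4.12% and 4.12%, and controls 4, 6 and 7 had 4.37%, 4.56% and 6.74%.

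The median member moved over a wider range than the sum, since a few abundant genes carry most of the sum. It stood at 207.4, 73.5 and 131.3 FPKM in starvation, at 180.7, 20.9 and 206.3 FPKM in fluphenazine and at 84.2, 156.8 and 58.6 FPKM in cantharidin. The 25 µM bortezomib libraries had 117.8, 130.0 and 215.3 FPKM and the 10 µM libraries 11.6, 22.9 and 23.9 FPKM. In rpn-6 RNAi it was 110.2, 75.0 and 125.0 FPKM, and in controls 4, 6 and 7 it was 10.7, 9.25 and 108.6 FPKM. The low libraries were thus controls 4 and 6, all of 10 µM bortezomib and fluphenazine 4, while control 7 lay among the treated libraries.

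**Figure D1:**
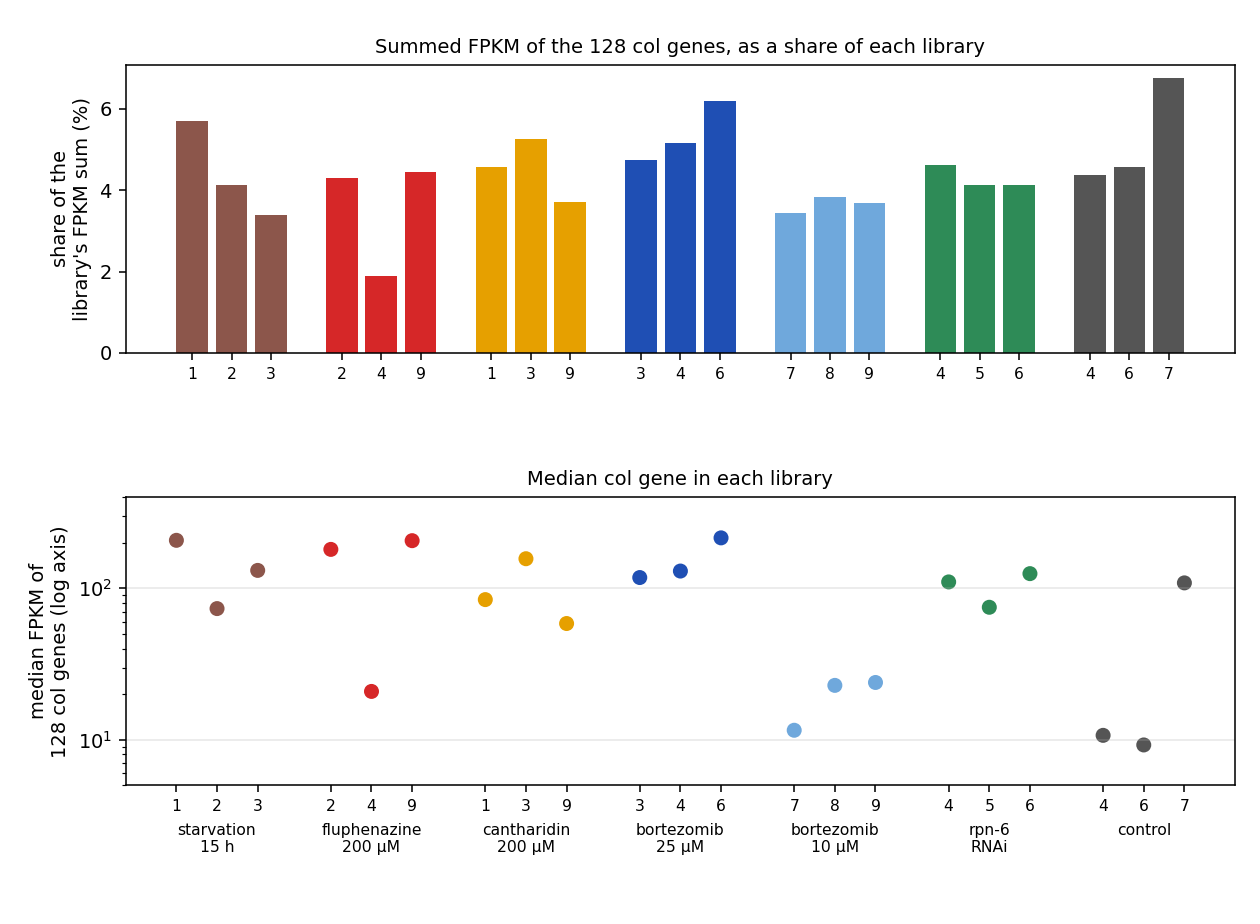
Share of the summed FPKM held by the 128 col genes (bars, percent) and the median FPKM of the members (points) in each of the 21 libraries, grouped by treatment with controls last. Fluphenazine 4 has the lowest share at 1.89% and control 7 the highest at 6.74%; the median is lowest in control 6 at 9.25 FPKM and highest in bortezomib 25 µM replicate 6 at 215.3 FPKM.

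Single libraries stood apart in these genes. Control 7 exceeded the mean of controls 4 and 6 by at least 2-fold in 75 of the 128 members, against 12.6% of all genes tested, and by at least 4-fold in 55 members, against 3.14%. Fluphenazine 4 was at least 2-fold below the mean of fluphenazine 2 and 9 in 95 members, against 21.8% of all genes, and at least 4-fold below in 81, against 5.53%. It was at least 2-fold above them in 4 members, against 5.9% of all genes, and at least 4-fold above in 1, against 1.7%. Starvation 3 was at least 2-fold above starvation 1 and 2 in 47 members and at least 2-fold below in 29, against 10.2% and 13.8% of all genes.

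Control 7 was the highest control in 112 members and fluphenazine 4 the lowest fluphenazine library in 110. The genes that differed were alike. Across the 128 genes, the difference between control 7 and the other 2 controls correlated with the difference between 25 µM and 10 µM bortezomib, which uses no control library, with Pearson's r = 0.877 (Spearman's rho = 0.87). With the difference between fluphenazine 4 and its partners r was -0.836 (rho = -0.842). These are descriptions over genes, which share libraries and are not independent replicates.

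Because control 7 shares its high level with treated libraries, the counts against control below depend on it. Every library shares in the estimate of spread, so starvation 3 and fluphenazine 4 also move counts of comparisons they are not part of, and each library that moves a count by over 1.5 times is named beside it. Every fold change is a log2 difference of log2(FPKM + 1) from 1 limma fit over all 21 libraries, with its standard error (SE). Each p is two-sided and adjusted by Benjamini-Hochberg over 17492 genes, and a gene is called when that p is under 0.05. At levels near or below 1 FPKM the added constant shrinks the fold change. The median SE over members was 0.80, so a member with a typical spread had to change several-fold to be called.

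Members were split by their mean over the 21 libraries: 16 genes with 1000 FPKM or more, 53 from 100 to 1000, 28 from 10 to 100 and 31 below 10 FPKM. Of the 113 members above 0 in every library, 95 differed at least 10-fold between their highest and lowest library, with a median of 33.95-fold. The group with the highest mean was 25 µM bortezomib for 47 members, starvation for 28, control for 20, rpn-6 RNAi for 18, cantharidin for 8, fluphenazine for 7 and 10 µM bortezomib for 0. The lowest mean was in 10 µM bortezomib for 58 members and in control for 28.

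**Figure D2:**
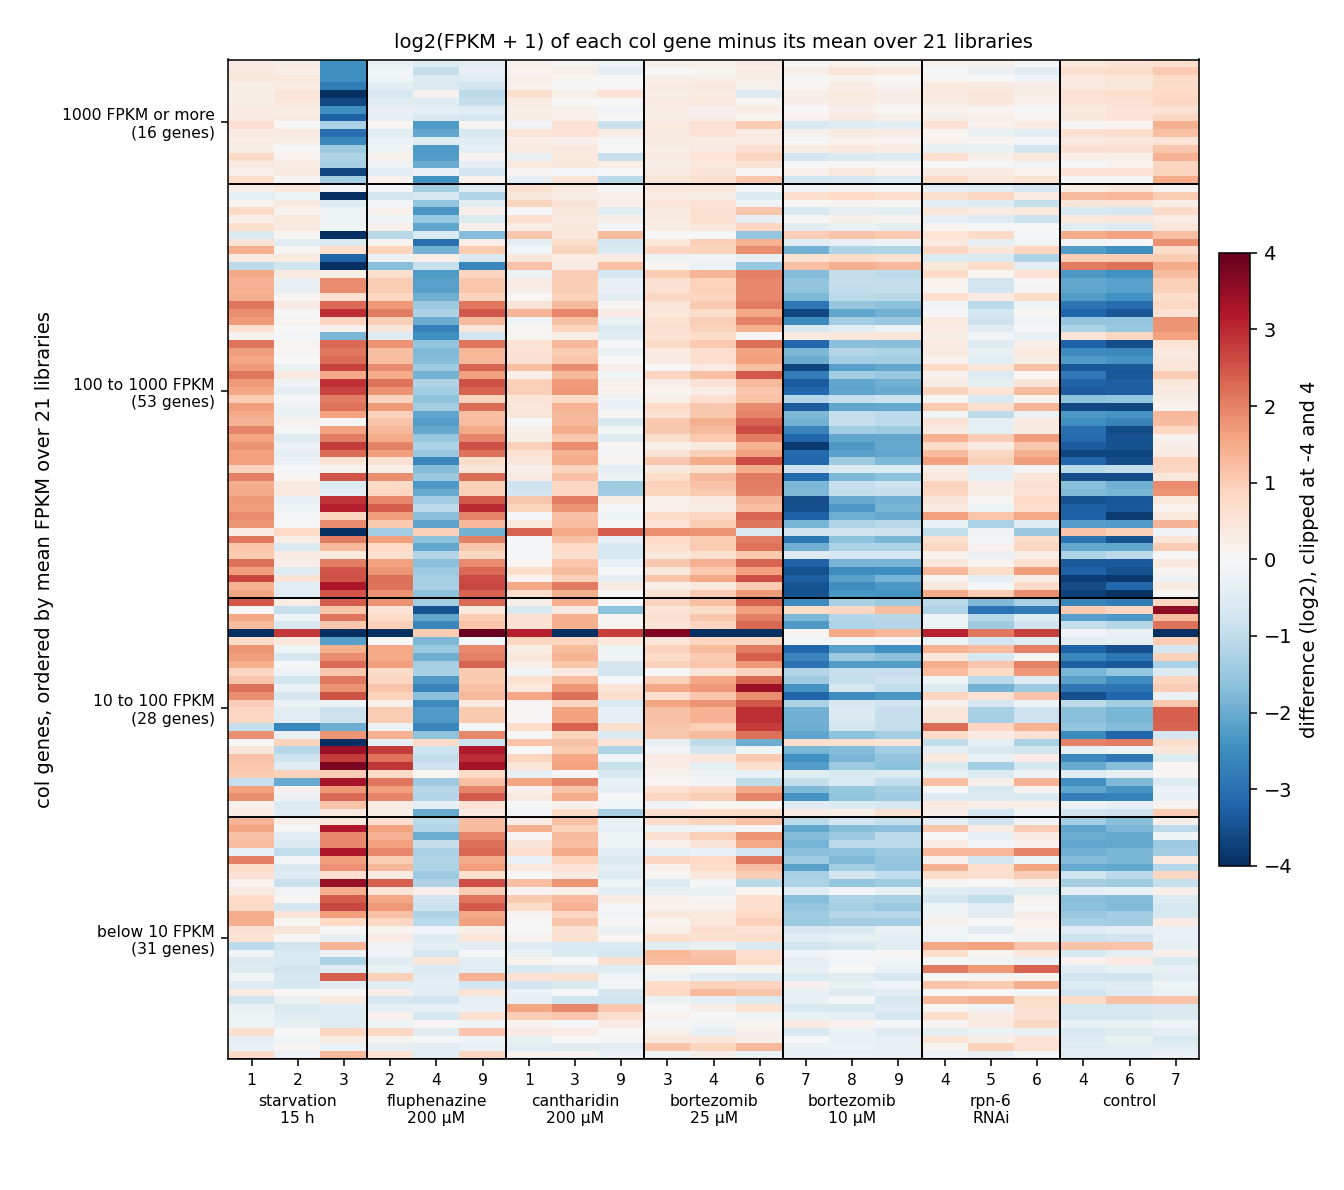
Each row is 1 of the 128 col genes, ordered by mean FPKM, and each column 1 of the 21 libraries; colour gives log2(FPKM + 1) minus the gene's own mean over the libraries, clipped at -4 and 4. The 16 most abundant genes vary least as a class, each highest in control 7 and lowest in starvation 3 or fluphenazine 4. Most genes below them are low in controls 4 and 6 and in 10 µM bortezomib and are not low in control 7.

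The 16 abundant members varied least: their highest library was 12.04-fold above their lowest in the median, against 37.83-fold to 47.37-fold in the other 3 classes. They include col-181, col-124, col-122, col-140, col-119, col-20, col-106 and col-19, and made up 73.1% of the collagen FPKM in controls 4 and 6 and 63.3% in control 7. All 16 were highest of all libraries in control 7. All 16 had their lowest starvation value in starvation 3, where they held 13.5% of the collagen FPKM, against 50.6% and 66.5% in starvation 1 and 2. In 11 of them starvation 3 was the lowest of the 21 libraries, and in the other 5 fluphenazine 4 was.

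The most abundant on average was col-181 (WBGene00000754, chromosome X). It had 2546, 2477 and 368 FPKM in starvation, 1642, 1428 and 1469 FPKM in fluphenazine and 2268, 2203 and 1814 FPKM in cantharidin. It had 2464, 2444 and 2570 FPKM in 25 µM bortezomib, 2032, 2257 and 2084 FPKM in 10 µM bortezomib, 2289, 2304 and 2072 FPKM in rpn-6 RNAi, and 2739, 2876 and 3156 FPKM in controls. Every treated library lay below every control for this gene. Only the fall in starvation was called (log2 fold change -1.14, SE 0.47, adjusted p = 0.048, limma), and it was lost without starvation 3 and in 18 other fits that left out 1 library.

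The adult collagen col-19 (WBGene00000608, chromosome X), a marker of the adult epidermis, had 1647, 1690 and 135 FPKM in starvation, 1012, 869 and 813 FPKM in fluphenazine and 1581, 1510 and 1296 FPKM in cantharidin. The other treated libraries lay between 1402 FPKM and 1686 FPKM, and controls had 1798, 1908 and 2313 FPKM. No comparison called it. The largest change was in starvation, at -1.47 (adjusted p = 0.051, limma), and starvation 3 was the only library below 813 FPKM.

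A second adult collagen, col-7 (WBGene00000596, chromosome I), behaved otherwise. It had 349, 164 and 84.0 FPKM in starvation, 222, 25.0 and 247 FPKM in fluphenazine, 70.3, 222 and 46.6 FPKM in cantharidin, 235, 156 and 190 FPKM in rpn-6 RNAi, and 39.1, 32.7 and 468 FPKM in controls. Its highest control was far above its other 2, and no comparison against control called it. Between the bortezomib doses it had 239, 277 and 523 FPKM at 25 µM and 35.6, 66.3 and 69.7 FPKM at 10 µM, which was called (2.55, SE 0.96, adjusted p = 0.044, limma) but was lost in 11 of the 21 fits that left out 1 library. Its neighbour col-62 followed it within a ratio of 0.837 to 1.09, so reads may be shared between them and the 2 are not separate evidence.

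Below the abundant class the family was dynamic. Of all members, 50 correlated at r of at least 0.9 with the mean of the other members over the 21 libraries, 38 of them from the class of 100 to 1000 FPKM and 0 from the abundant class, and 22 had an r below 0. The larval collagen col-17 (chromosome II) had 135, 38.0 and 490 FPKM in starvation, 234, 20.2 and 330 FPKM in fluphenazine and 151, 219 and 65.4 FPKM in cantharidin. It had 61.7, 67.9 and 107 FPKM in 25 µM bortezomib, 3.78, 8.43 and 9.63 FPKM in 10 µM bortezomib, 69.6, 48.7 and 90.1 FPKM in rpn-6 RNAi, and 3.37, 4.94 and 66.5 FPKM in controls. Fluphenazine 4 and control 7 each crossed over to the range of another group.

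One of the 3 members with the largest range of group means was col-65 (WBGene00000641, chromosome I). It had 333, 73.9 and 308 FPKM in starvation, 239, 19.8 and 323 FPKM in fluphenazine and 57.2, 100 and 40.2 FPKM in cantharidin. It had 113, 151 and 313 FPKM in 25 µM bortezomib, 4.32, 10.9 and 13.5 FPKM in 10 µM bortezomib, 57.2, 39.8 and 63.1 FPKM in rpn-6 RNAi, and 2.87, 2.59 and 43.3 FPKM in controls. Controls 4 and 6 and 10 µM bortezomib were low, and control 7 lay with cantharidin and rpn-6 RNAi.

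**Figure D3:**
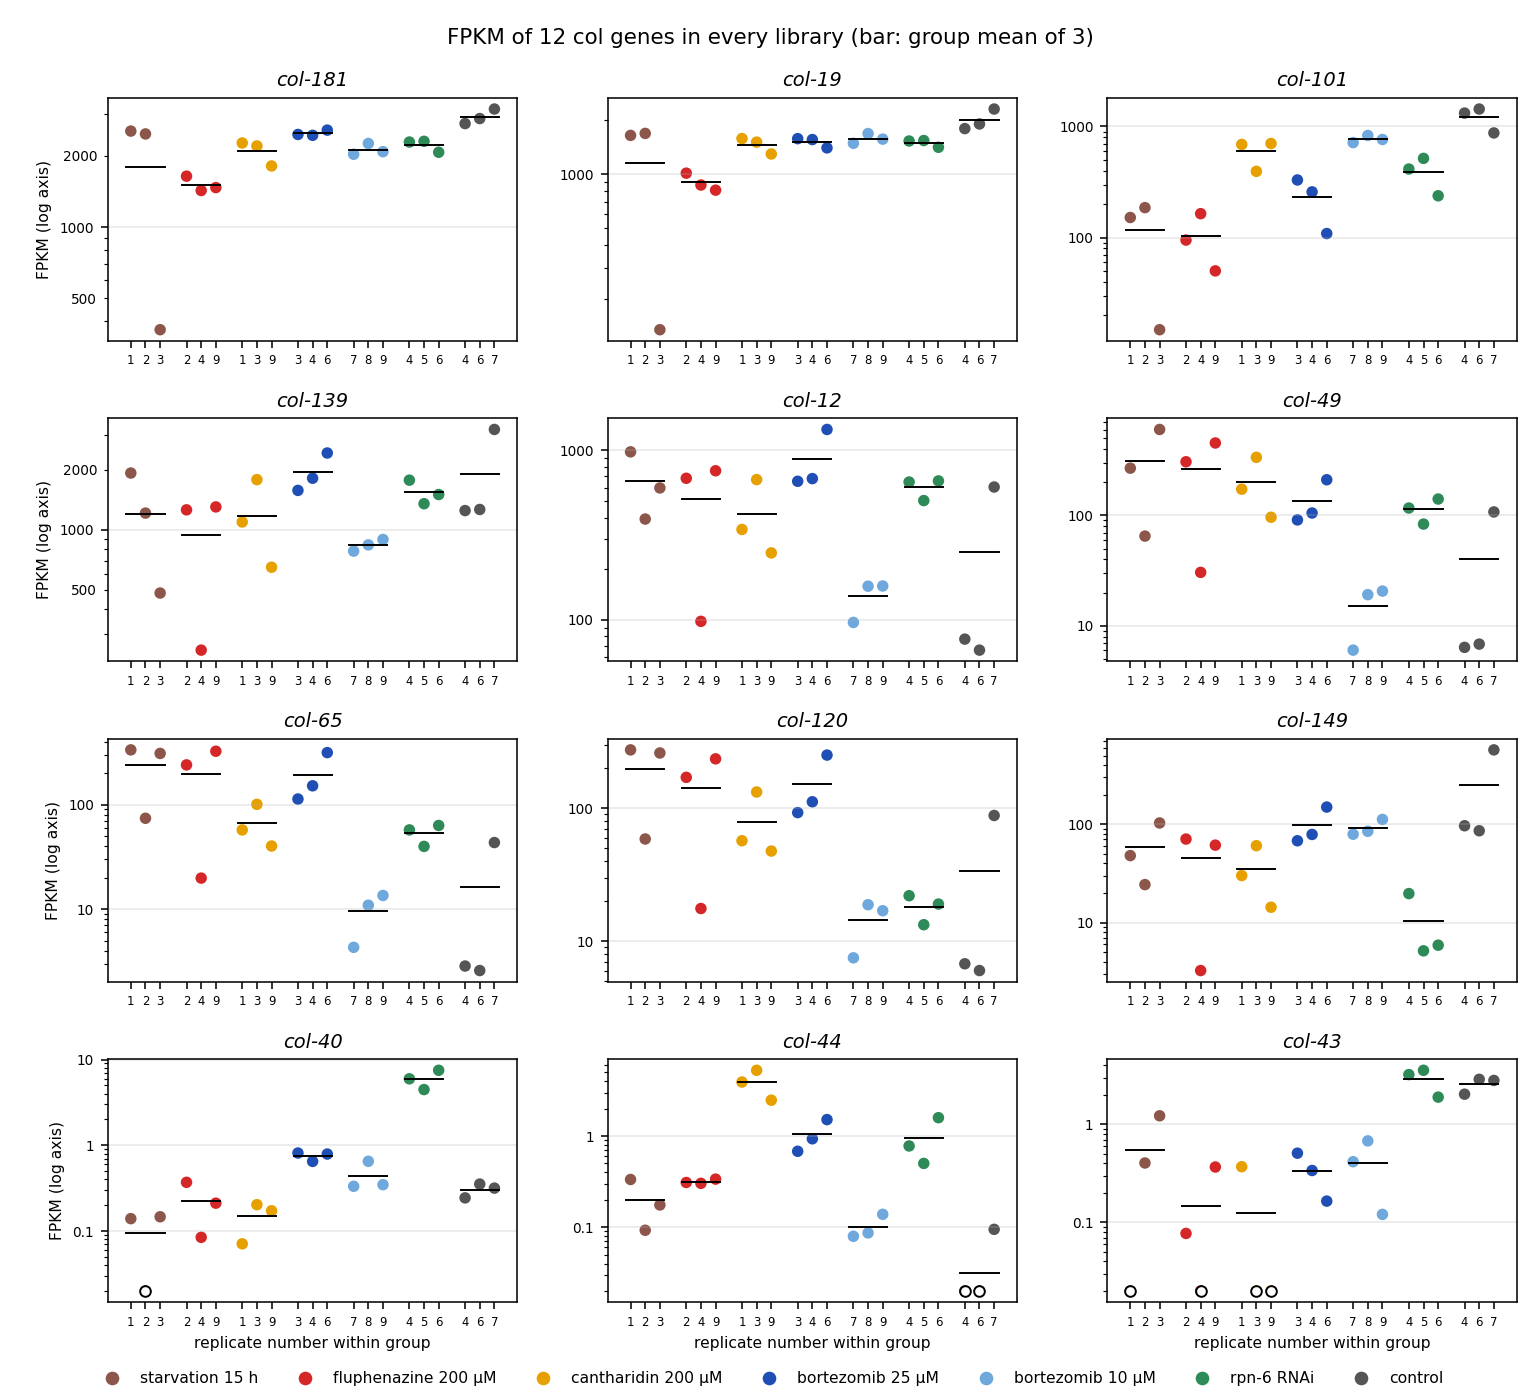
FPKM of 12 col genes in every library on log axes, 1 panel per gene, with libraries grouped by treatment and numbered by replicate; bars are group means of 3 libraries and open circles are values listed at 0. The abundant col-181 and col-19 stay at or above 813 FPKM outside starvation 3, col-12, col-49, col-65 and col-120 are low in controls 4 and 6 and in 10 µM bortezomib (col-120 in rpn-6 RNAi too), col-40 is highest in rpn-6 RNAi, col-44 is highest in cantharidin, and col-43 is higher in rpn-6 RNAi and control than in the other groups.

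In starvation for 15 h the col genes called higher were all of middle and low abundance. The falls called among the abundant members did not hold with each library left out. Against control, 59 of 128 members rose, 15 fell and 54 did not pass the test. That is 57.8% called, beside 57.5% of all genes tested (39.1% higher and 18.4% lower), so the share called was near the background. The median change over members was 1.29, beside 0.38 over all genes. Starvation and control did not overlap for 23 members that were higher, beside 35.5% of all genes, a share below that background. They did not overlap for 18 that were lower, beside 16.9%. By class, 0 rose and 7 fell of the 16 abundant members by limma (0 higher and 12 lower at an unadjusted p under 0.05), while 30 rose and 5 fell of the 53 members at 100 to 1000 FPKM.

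In starvation the largest rise was that of col-65, at 4.54 (SE 1.01, adjusted p = 0.0015, limma), with every starved library above every control. Among members whose groups did not overlap, the next were col-111 at 3.86 (SE 0.81, adjusted p = 0.001) and col-113 at 3.48 (SE 0.83, adjusted p = 0.0026), both on chromosome IV, and col-58 at 3.25 (SE 0.81, adjusted p = 0.0036). For col-111 (WBGene00000685) the starved libraries had 85.0, 30.2 and 151 FPKM and controls had 2.33, 2.11 and 11.9 FPKM. The abundant col-124 fell, with 2530, 2297 and 345 FPKM in starvation and 2986, 3145 and 3883 FPKM in controls (-1.39, SE 0.50, adjusted p = 0.028), a call lost without starvation 3 or any 1 control. The calls of col-181, col-140, col-20, col-80 and col-93 were lost without starvation 3 as well, where their changes were -0.22, -0.24, -0.30, -0.47 and -0.62, and 0 of the 7 abundant falls held with each library left out. The 4 rises held when each of the 21 libraries was left out in turn.

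The largest fall in starvation was that of col-101 (WBGene00000675, chromosome IV), with 152, 186 and 14.8 FPKM in starvation and 1319, 1434 and 874 FPKM in controls (-3.95, SE 0.71, adjusted p = 0.00029, limma). It was followed by col-143, with 297, 453 and 5.87 FPKM in starvation and 1204, 1319 and 1005 FPKM in controls (-3.58, SE 1.03, adjusted p = 0.0083), and by col-8, with 524, 609 and 16.2 FPKM in starvation and 1637, 1723 and 1396 FPKM in controls (-3.16, SE 0.86, adjusted p = 0.0062). All 3 falls held with each library left out, starvation 3 included, but their sizes varied. Over all alternative fits the change ran from -4.69 to -1.67 for col-143 and from -4.06 to -1.48 for col-8. For col-101 it ran from -4.59 to -2.81. Without starvation 3 the count of members became 39 higher and 7 lower, without control 4 it was 26 and 6, without control 6 it was 27 and 5, and without control 7 it was 71 and 8. Without starvation 1 it was 41 and 20, and without starvation 2 it was 69 and 21.

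Fluphenazine raised 42 members and lowered 10, and 76 did not pass the test. The share called was 40.6%, beside 43.8% of all genes (34.4% higher, 9.39% lower), and the median change was 0.98, beside 0.34 over all genes. Without fluphenazine 4, in which most members were low, the count became 71 higher and 8 lower. Without fluphenazine 2 it was 6 and 10, without fluphenazine 9 it was 4 and 10, without control 4 it was 8 and 9, without control 6 it was 9 and 8, and without control 7 it was 66 and 8. Without starvation 3 it was 47 and 25. Fluphenazine and control did not overlap for 7 members that were higher, beside 29.8% of all genes, and for 24 that were lower, beside 7.51%.

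The rises in fluphenazine that held with each library left out were those of col-65 (3.79, adjusted p = 0.0074, limma), col-111 (3.53, adjusted p = 0.0027), col-33 (2.81, SE 0.71, adjusted p = 0.0052) and col-153 (0.79, SE 0.20, adjusted p = 0.006). For col-33 the fluphenazine libraries had 14.6, 1.56 and 21.7 FPKM and controls 0.188, 0.204 and 0.823 FPKM, with no overlap. The groups overlapped for col-65, whose fluphenazine 4 value of 19.8 FPKM lay below the 43.3 FPKM of control 7. The small rise of col-153, named here after its values were seen, came from 27.9, 16.4 and 27.8 FPKM in fluphenazine and 10.9, 12.2 and 16.7 FPKM in controls.

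Of the 10 falls in fluphenazine, 7 held with each library left out, those of col-101, col-103, col-142, col-42, col-43, col-93 and col-98. The largest was that of col-101, with 95.05, 164 and 50.2 FPKM in fluphenazine against 1319, 1434 and 874 FPKM in controls (-3.67, adjusted p = 0.00075, limma). For col-142 the values were 222, 57.4 and 186 FPKM in fluphenazine and 453, 559 and 974 FPKM in controls (-2.22, SE 0.50, adjusted p = 0.0023). For the abundant col-93 they were 1016, 242 and 918 FPKM in fluphenazine and 1792, 1788 and 2492 FPKM in controls (-1.71, SE 0.45, adjusted p = 0.0067).

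Cantharidin raised 29 members and lowered 1, and 98 did not pass the test. The share called, 23.4%, lay below the 37.9% of all genes (31.9% higher, 5.96% lower), while the median change was 1.16, beside 0.34 over all genes. The count was 8 higher without cantharidin 1, 3 without cantharidin 3, and 4 without control 4 or without control 6, with 1 lower in each, and became 62 higher and 2 lower without control 7. Without starvation 3 it was 37 higher and 15 lower, and without fluphenazine 4 it was 50 higher and 2 lower. Leaving out starvation 1, starvation 2, fluphenazine 2 or fluphenazine 9 also gave 2 lower. The largest rise, that of col-90 (WBGene00000665, chromosome III), held with each library left out: 67.9, 106 and 37.2 FPKM in cantharidin and 1.05, 1.63 and 19.1 FPKM in controls (3.78, SE 0.91, adjusted p = 0.0042, limma). The other 2 rises that held were at low levels, in col-44 and col-183. Cantharidin and control did not overlap for 24 members that were higher, beside 41.6% of all genes, and for 19 that were lower, beside 8.3% of all genes.

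The low-level col-44 (WBGene00000621) and col-183 (WBGene00000756), both on chromosome X, were singled out after their values were seen. For col-44 cantharidin had 3.91, 5.26 and 2.47 FPKM and controls had 0, 0 and 0.0948 FPKM (2.20, SE 0.21, adjusted p = 9.7e-07, limma). Bortezomib at 25 µM had 0.680, 0.933 and 1.51 FPKM, bortezomib at 10 µM had 0.0795, 0.0866 and 0.139 FPKM, rpn-6 RNAi had 0.778, 0.501 and 1.59 FPKM, and starvation and fluphenazine stayed at or below 0.337 FPKM. Every cantharidin library was above every other library. Outside cantharidin, col-44 reached 1 FPKM only at 1.51 FPKM in 25 µM bortezomib and 1.59 FPKM in rpn-6 RNAi. It thus passed the filter through the group where it is high, and its call there is not independent of the filter. Each fit with a library left out kept the filter taken over all 21 libraries. For col-183 cantharidin had 2.22, 2.53 and 1.57 FPKM and controls had 0, 0 and 0.08 FPKM (1.58, SE 0.25, adjusted p = 0.00013); here rpn-6 RNAi, at 1.64, 1.06 and 1.41 FPKM, reached the range of cantharidin and was called as well (1.20, adjusted p = 0.001). The neighbour of col-183 on the chromosome, the abundant col-184, correlated with it at 0.0907 over the 21 libraries.

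Among the abundant and middle members, col-95 was highest in cantharidin, with 416, 235 and 438 FPKM, against 176, 155 and 72.4 FPKM in controls, and the groups did not overlap. Its change of 1.47 was not called (adjusted p = 0.33, limma), and this gene too was picked after its values were seen. Across the other groups it ran from 1.54 FPKM in starvation 3 to 291 FPKM in 25 µM bortezomib 3.

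Bortezomib at 25 µM raised 67 members and lowered 3 against control, and 58 did not pass the test. The share called was 54.7%, beside 53.4% of all genes (42.3% higher, 11.1% lower). The median change was 1.57, beside 0.40 over all genes, the highest of the 6 comparisons against control. Of the 16 abundant members 0 were called in either direction by limma (0 also at an unadjusted p under 0.05), with a median of -0.27, whereas 35 rose and 1 fell of the 53 at 100 to 1000 FPKM. The groups did not overlap for 53 members that were higher, beside 49.7% of all genes, and 16 that were lower, beside 13.4%. With each library left out, 27 rises and 2 falls held. Without bortezomib 25 µM replicate 6 the count was 37 higher and 2 lower, without control 4 it was 31 and 2, without control 6 it was 29 and 2, and without control 7 it was 78 and 4. Without starvation 3 it was 69 and 15.

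The largest rises at 25 µM were those of col-65, with 113, 151 and 313 FPKM against 2.87, 2.59 and 43.3 FPKM in controls (4.37, adjusted p = 0.0018, limma), col-111 (3.90, adjusted p = 0.00082), col-113 (3.88, adjusted p = 0.0011) and col-156 (3.81, SE 1.10, adjusted p = 0.0081). These held with each library left out. For col-12 and col-13, neighbours on chromosome V whose ratio ran from 0.795 to 0.991, reads may be shared, and a value of either is uncertain. In C. elegans, added copies of col-10, col-13 or col-120 have been reported to lengthen life. Here col-13 had 577, 586 and 1222 FPKM at 25 µM and 68.9, 59.8 and 531 FPKM in controls (2.51, SE 0.78, adjusted p = 0.013), a call lost without bortezomib 25 µM replicate 6, control 4 or control 6.

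For col-10, 25 µM bortezomib had 267, 333 and 664 FPKM and controls had 43.2, 40.4 and 285 FPKM (2.28, SE 0.81, adjusted p = 0.027, limma), and the groups overlapped. For col-120, 25 µM bortezomib had 92.8, 112 and 251 FPKM and controls had 6.76, 6.01 and 88.3 FPKM (3.03, SE 0.99, adjusted p = 0.017). Both calls were lost without the same 3 libraries as that of col-13. The falls at 25 µM were those of col-101, with 330, 258 and 109 FPKM against 1319, 1434 and 874 FPKM in controls (-2.49, adjusted p = 0.0077), of col-135, with 13.2, 7.78 and 3.55 FPKM against 69.6, 72.4 and 28.1 FPKM in controls (-2.69, SE 0.89, adjusted p = 0.019), and of col-43. The fall of col-135 was lost without bortezomib 25 µM replicate 6, control 4 or control 6.

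Few members were called in 10 µM bortezomib against control. By limma 0 rose and 1 fell, that is 0.781% called, beside 12.9% of all genes (9.61% higher, 3.24% lower). At an unadjusted p under 0.05 there were 0 higher and 3 lower, and with array weights 23 were higher and 16 lower. The median change was -0.22, beside 0.16 over all genes. Without control 7, the control that resembles treated libraries, the median became 0.40, with 0 higher and 2 lower. Without starvation 3 there were 0 higher and 10 lower, and without starvation 3, fluphenazine 4 and control 7 together 0 higher and 9 lower. The groups did not overlap for 30 members that were lower in 10 µM bortezomib and 3 that were higher, beside 10.5% and 32.7% of all genes.

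The difference between the bortezomib doses used neither controls nor the other groups' means. Against 10 µM, 75 members were higher at 25 µM and 1 was lower, that is 59.4% called, beside 39.6% of all genes (27.2% higher, 12.4% lower). The median was 1.77, beside 0.27 over all genes. The doses did not overlap for 100 members that were higher at 25 µM, beside 48.6% of all genes, and for 6 that were lower, beside 26% of all genes. By class, 39 of 53 members at 100 to 1000 FPKM, 18 of 28 at 10 to 100 FPKM and 18 of 31 below 10 FPKM were higher, and 0 of the 16 abundant ones were called by limma (1 at an unadjusted p under 0.05), with a median of 0.14.

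Between the doses the largest differences were those of col-65 (4.18, adjusted p = 0.0043, limma), col-113 (4.01, adjusted p = 0.0014), col-130 (3.93, SE 0.98, adjusted p = 0.0053) and col-90 (3.87, adjusted p = 0.0036). For col-130 the 25 µM libraries had 141, 181 and 336 FPKM and the 10 µM libraries 6.15, 17.6 and 17.6 FPKM. For col-90 the 25 µM libraries had 35.3, 50.02 and 84.2 FPKM and the 10 µM libraries 1.601, 3.14 and 3.64 FPKM. These were among the 25 of 75 that held with each library left out. Without bortezomib 25 µM replicate 6 the count was 27 higher, without bortezomib 10 µM replicate 7 it was 29, and without bortezomib 25 µM replicate 4 it was 46, with 0 lower in each. Without starvation 3 it was 82 higher and 5 lower. The 1 fall between the doses, that of col-101 (-1.86, adjusted p = 0.047), was called in 7 of the 21 fits that left out 1 library. In the fit of these 2 groups alone, whose spread holds none of control 7, fluphenazine 4 and starvation 3, 99 members were higher and 5 lower.

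RNAi against rpn-6 raised 28 members and lowered 7, and 93 did not pass the test. The share called was 27.3%, beside 36.7% of all genes (27.9% higher, 8.81% lower), and the median change was 0.81, beside 0.31 over all genes. The largest rises were those of col-111, with 86.0, 67.9 and 128 FPKM against 2.33, 2.11 and 11.9 FPKM in controls (4.17, adjusted p = 0.00057, limma), col-113 (4.02, adjusted p = 0.001), col-109 (3.99, SE 1.06, adjusted p = 0.0069) and col-91 (3.64, SE 1.02, adjusted p = 0.0092). The first 3 held with each library left out, and that of col-91 was lost without control 6. The groups did not overlap for 38 members that were higher, beside 40.1% of all genes, and 22 that were lower, beside 12.2%. Without control 4 or control 6 the count was 15 higher and 3 lower, and without control 7 it was 54 higher and 5 lower. Without starvation 3 it was 30 and 20, without rpn-6 RNAi 4 it was 22 and 3, without rpn-6 RNAi 5 it was 23 and 3, and without rpn-6 RNAi 6 it was 21 and 1.

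Of the falls under rpn-6 RNAi, that of col-149 (WBGene00000722, chromosome V) held with each library left out. It had 19.7, 5.16 and 5.89 FPKM in rpn-6 RNAi and 96.6, 85.9 and 571 FPKM in controls (-4.14, SE 0.96, adjusted p = 0.0025, limma). Starvation had 48.0, 24.3 and 103 FPKM, fluphenazine 70.7, 3.25 and 61.3 FPKM, cantharidin 30.1, 60.5 and 14.3 FPKM, 25 µM bortezomib 67.9, 78.8 and 150 FPKM and 10 µM bortezomib 79.2, 84.8 and 112 FPKM. The rpn-6 RNAi libraries were below those of both bortezomib doses. Its neighbour col-150 correlated with it at 0.452.

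Against rpn-6 RNAi, 25 µM bortezomib had 9 members higher and 3 lower, and 116 did not pass the test. The share called was 9.38%, beside 22.1% of all genes (14.1% higher, 8.01% lower), and the median was 0.55, beside 0.03. The groups did not overlap for 64 of the 128 members that were higher in 25 µM bortezomib, beside 32.7% of all genes. They did not overlap for 12 that were lower, beside 28.7%. Without bortezomib 25 µM replicate 3 or 4, or without rpn-6 RNAi 5, the count was 3 higher and 3 lower. Without bortezomib 25 µM replicate 6 it was 5 and 3, without bortezomib 10 µM replicate 9 it was 6 and 3, without rpn-6 RNAi 4 it was 3 and 4, and without rpn-6 RNAi 6 it was 2 and 3. Without starvation 3 it was 15 and 5, without fluphenazine 4 it was 14 and 5, and without control 7 it was 14 and 3. The largest differences upward were those of col-156, with 72.9, 85.4 and 280 FPKM in 25 µM bortezomib and 16.7, 5.97 and 8.44 FPKM in rpn-6 RNAi (3.53, SE 1.10, adjusted p = 0.032, limma), col-149 (3.29, adjusted p = 0.024), col-120, with 92.8, 112 and 251 FPKM in 25 µM bortezomib and 21.98, 13.3 and 19.03 FPKM in rpn-6 RNAi (2.89, adjusted p = 0.046), and col-150 (2.18, adjusted p = 0.039). None of these 4 held with each library left out: they were called in 15, 17, 7 and 14 of 21 such fits. The calls that did hold were those of the low-level col-116 and col-83 upward and of col-158, col-40 and col-43 downward.

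**Figure D4:**
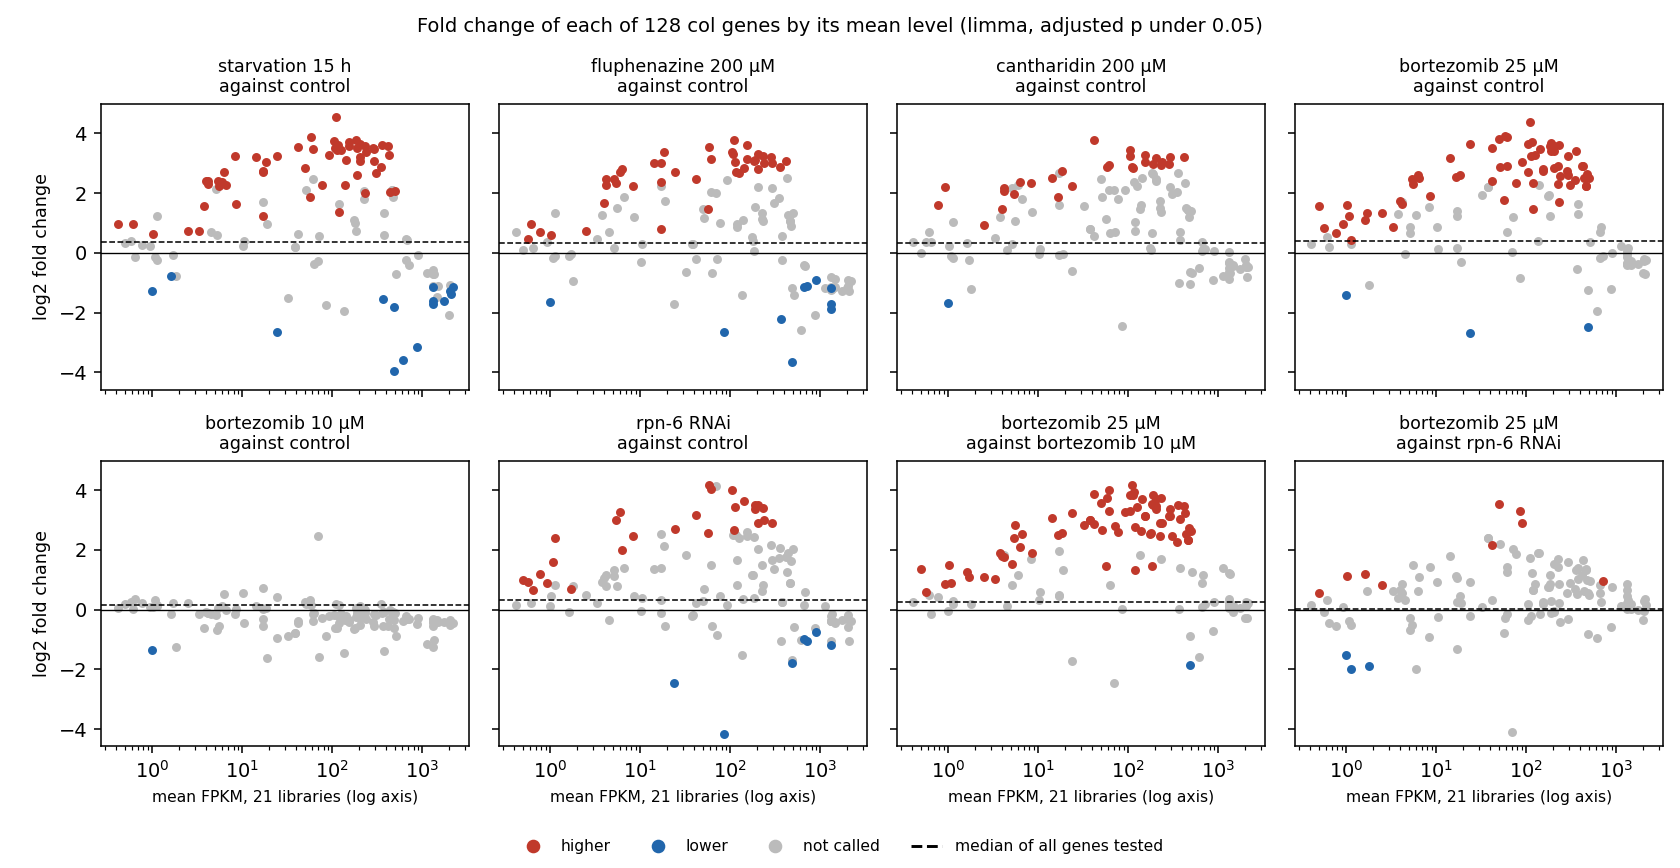
Log2 fold change of each of the 128 col genes against its mean FPKM on a log axis, 1 panel per comparison, with called members in colour, others in grey and a dashed line at the median of all genes tested. Rises are concentrated below 1000 FPKM, 10 µM bortezomib against control has 0 members called higher and 1 lower, and 25 µM against 10 µM has 75 higher and 1 lower.

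A few members of low abundance separated groups with little spread. The clearest was col-40 (WBGene00000617, chromosome II), with 5.96, 4.46 and 7.49 FPKM in rpn-6 RNAi and 0.244, 0.353 and 0.317 FPKM in controls (2.40, SE 0.15, adjusted p = 2.2e-09, limma). In 25 µM bortezomib it had 0.812, 0.649 and 0.790 FPKM, so the difference of 25 µM bortezomib from rpn-6 RNAi was -1.97 (adjusted p = 3.8e-07). In 10 µM bortezomib it had 0.332, 0.650 and 0.347 FPKM, and starvation, fluphenazine and cantharidin stayed at or below 0.370 FPKM. Both calls held with each library left out. Since col-40 reached 1 FPKM only in rpn-6 RNAi, it passed the filter through the group where it is high. Its calls there are thus not independent of the filter. The dauer collagen col-2, outside the rule by its level, had 1.67, 0.398 and 1.68 FPKM in rpn-6 RNAi, 0.557, 0.445 and 0.542 FPKM in 25 µM bortezomib and 0, 0 and 0.0905 FPKM in controls. It was not tested.

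The opposite pattern was that of col-43 (WBGene00000620, chromosome V), singled out after its values were seen. It had 0, 0.405 and 1.23 FPKM in starvation, 0.0773, 0 and 0.368 FPKM in fluphenazine and 0.371, 0 and 0 FPKM in cantharidin. It had 0.509, 0.339 and 0.165 FPKM in 25 µM bortezomib, 0.417, 0.680 and 0.121 FPKM in 10 µM bortezomib, 3.23, 3.57 and 1.90 FPKM in rpn-6 RNAi, and 2.04, 2.89 and 2.81 FPKM in controls. Every library of the other 5 treatments lay below every rpn-6 RNAi and control library. The changes against control were -1.28 in starvation (adjusted p = 0.00085, limma), -1.64 in fluphenazine (adjusted p = 0.00014), -1.68 in cantharidin (adjusted p = 0.00012), -1.42 in 25 µM bortezomib (adjusted p = 0.00032) and -1.36 in 10 µM bortezomib (adjusted p = 0.0029), and 0.11 in rpn-6 RNAi, where it was not called (adjusted p = 0.8). Since col-43 reached 1 FPKM only in controls, rpn-6 RNAi and starvation 3, it passed the filter mainly through the groups where it is high. Its calls against control are thus not independent of the filter. The 5 calls held with each library left out, with the filter kept over all 21 libraries, and share the same 3 controls. This was the only member called in 10 µM bortezomib.

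For col-158 the rpn-6 RNAi libraries had 5.79, 6.03 and 4.10 FPKM and controls 4.06, 4.09 and 0.805 FPKM, and 25 µM bortezomib had 0.689, 0.879 and 0.535 FPKM, a difference from rpn-6 RNAi of -1.88 (SE 0.47, adjusted p = 0.012, limma). Starvation 3, at 4.91 FPKM, stood with these 2 groups, and the other starved libraries, at 0.118 and 0.394 FPKM, did not. The only member called in both directions against control was col-116, with 0.586, 0.569 and 0 FPKM in starvation (-0.77, adjusted p = 0.031), 4.61, 4.56 and 2.99 FPKM in 25 µM bortezomib (1.11, adjusted p = 0.004) and 1.62, 1.98 and 0.582 FPKM in controls. Its fall in starvation was lost without starvation 3, control 4 or control 6. The rise at 25 µM held with each library left out.

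Some members carry limits of their own. For col-88 the table holds a 0 in 7 libraries, while the rest run from 12.4 to 381 FPKM, and no comparison called it. Its zeros stand beside values of 118, 381 and 215 FPKM in the same groups (starvation, fluphenazine and 25 µM bortezomib), so a 0 here may be a failed estimate. The non-cuticle transmembrane collagen col-99 had 2.62 to 13.2 FPKM and was not called in any comparison. Of the members, 46 overlap another protein-coding gene in the annotation, 41 of them on the opposite strand. The labels name a stranded kit but not whether strand was used in counting, so reads of such genes may include those of their partners.

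Several members had nearly equal levels in every library. The neighbours col-117 and col-3 had a ratio of 0.995 to 1.01 in all 21 libraries, and col-126 and col-127 one of 0.99 to 1.00. The abundant col-129 (chromosome IV) and col-139 (chromosome V) stayed within 0.848 to 1.10 of each other, and col-98 and col-103, both lower in fluphenazine, within 0.832 to 1.23. Values of such pairs may be split from shared reads, which was not tested, since no sequences were compared. As a caution each pair is better counted as 1 measurement. These pairs were picked by their values, and others, such as col-122 and col-181 (0.821 to 1.05), were about as close. In all, 19 runs of adjacent col genes hold 45 col genes, 41 of them members. Neighbours did not always move together: col-167, col-168, col-169 and col-170 on chromosome X correlated at 0.971 or more over the 21 libraries, whereas among col-17, col-20 and col-73 on chromosome II the lowest r was -0.506. These runs were picked after their r was seen.

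The remaining genes of cuticle making were read from lists written with earlier results of these data known. Their counts stand beside the share of all genes called higher, namely 39.1% in starvation, 34.4% in fluphenazine, 31.9% in cantharidin, 42.3% in 25 µM bortezomib, 9.61% in 10 µM bortezomib and 27.9% in rpn-6 RNAi. Whether the calls of these lists hold with 1 library left out is not given here. All 6 furrow collagens, which form the annular furrows, rose in starvation and in fluphenazine and 4 of 6 in cantharidin, with medians of 3.42, 3.66 and 3.02. Their mean relative to controls was uneven, at 2.59, 1.52 and 6.11 in starvation 1, 2 and 3 and 4.84, 1.1 and 5.05 in fluphenazine 2, 4 and 9. In 25 µM bortezomib, 10 µM bortezomib and rpn-6 RNAi 0 of 6 were called by limma, with 1, 0 and 2 higher at an unadjusted p under 0.05. For dpy-7 starvation had 18.1, 6.72 and 223 FPKM, fluphenazine 88.6, 4.27 and 107 FPKM, cantharidin 25.8, 46.0 and 8.33 FPKM, and controls 1.32, 0.638 and 3.43 FPKM. It rose by 3.65 in starvation (SE 1.10, adjusted p = 0.011), by 3.85 in fluphenazine (adjusted p = 0.012) and by 3.15 in cantharidin (adjusted p = 0.035). Of 14 other shape collagens, 12 rose in starvation, 12 in fluphenazine, 9 in cantharidin, 4 in 25 µM bortezomib, 0 in 10 µM bortezomib (0 also unadjusted) and 1 in rpn-6 RNAi, and 0 fell. The shares in 25 µM bortezomib, 10 µM bortezomib and rpn-6 RNAi lie below those of all genes. Among them rol-6, at 87.7, 28.4 and 489 FPKM in starvation and 1.67, 1.84 and 21.1 FPKM in controls, rose by 4.30 (SE 1.09, adjusted p = 0.004).

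Of 17 molting genes, 15 rose in starvation, 16 in fluphenazine, 8 in cantharidin, 3 in 25 µM bortezomib, 0 in 10 µM bortezomib (0 also unadjusted) and 2 in rpn-6 RNAi, where 1 fell. The counts in both bortezomib groups and in rpn-6 RNAi are below the share of all genes. The list's median change was 2.02 in starvation and 2.53 in fluphenazine. For mlt-9 starvation had 11.9, 4.46 and 100 FPKM and controls 0.694, 0.530 and 3.57 FPKM (3.08, SE 0.96, adjusted p = 0.013, limma). Starvation 3 was the highest library of the whole set for the mean of the furrow, other shape and molting lists, at 6.11, 4.73 and 3.44 above controls on the log2 scale. Fluphenazine 4 was the lowest of the fluphenazine libraries in each of the 3.

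Of 12 genes that modify, cut or cross-link collagen, 4 rose in starvation, 4 in fluphenazine, 4 in cantharidin, 6 in 25 µM bortezomib, 0 in 10 µM bortezomib (0 also unadjusted) and 4 in rpn-6 RNAi, with 0 falls. These counts are near the share of all genes, except in 10 µM bortezomib, where they are below it. The tetraspanin tsp-15, which works with the cross-linking dual oxidase bli-3, had 26.4, 19.3 and 27.0 FPKM in starvation, 26.8, 25.9 and 35.0 FPKM in 25 µM bortezomib, 7.51, 8.36 and 8.27 FPKM in 10 µM bortezomib, 26.7, 20.9 and 34.4 FPKM in rpn-6 RNAi and 6.50, 7.86 and 11.6 FPKM in controls. Its 25 µM rise was 1.67 (SE 0.25, adjusted p = 3.7e-05, limma), and bli-3 rose by 1.27 (SE 0.23, adjusted p = 0.00022). The prolyl 4-hydroxylase dpy-18 rose in rpn-6 RNAi, with 72.1, 83.7 and 78.0 FPKM against 21.3, 23.02 and 34.1 FPKM in controls (1.57, SE 0.50, adjusted p = 0.02), and had 26.1, 29.8 and 26.0 FPKM in 25 µM bortezomib, 1.48 lower than rpn-6 RNAi on the log2 scale (adjusted p = 0.044).

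Of 23 cuticlin-like genes, 20 rose in starvation, 15 in fluphenazine, 8 in cantharidin, 11 in 25 µM bortezomib, 0 in 10 µM bortezomib (1 unadjusted) and 7 in rpn-6 RNAi, with 0 falls. The shares in cantharidin, 25 µM bortezomib and rpn-6 RNAi are near those of all genes. Of 11 regulators of the epidermis, 5 rose and 2 fell in starvation, and 4, 2, 3, 0 and 2 rose in fluphenazine, cantharidin, 25 µM bortezomib, 10 µM bortezomib (1 unadjusted) and rpn-6 RNAi, with 0 falls in these. The rises in starvation and fluphenazine are near the share of all genes and the others below it, and the 2 falls in starvation stand beside 18.4% of all genes. The heterochronic gene lin-14 had 23.8, 22.1 and 33.0 FPKM in starvation and 6.08, 5.19 and 10.6 FPKM in controls (1.75, SE 0.24, adjusted p = 2.1e-05, limma). The epidermal GATA factor elt-3 had 36.99, 33.4 and 38.2 FPKM in 25 µM bortezomib and 22.5, 20.7 and 24.7 FPKM in 10 µM bortezomib (0.65, SE 0.20, adjusted p = 0.018). Of 12 basement membrane genes, collagens not of the cuticle among them, 3 rose and 1 fell in 25 µM bortezomib against control, and in the 5 other treatments 0 rose by limma (0 also at an unadjusted p under 0.05). In starvation, cantharidin and rpn-6 RNAi 1 of them fell in each, and 0 fell in fluphenazine and 10 µM bortezomib (0 also unadjusted). Of 5 cuticlins tested, 1 rose in each of starvation, fluphenazine, cantharidin and 25 µM bortezomib, 0 in 10 µM bortezomib (0 also unadjusted) and 2 in rpn-6 RNAi, so that in the first 5 of these the share was below that of all genes.

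The DBL-1 pathway is a TGF-beta pathway that sets body size and acts on cuticle collagen genes in C. elegans. Of its 10 genes, 8 rose and 2 fell in starvation, 7 and 1 in fluphenazine, 7 and 0 in cantharidin, 6 and 2 in 25 µM bortezomib, 2 and 1 in 10 µM bortezomib and 5 and 1 in rpn-6 RNAi. For sma-10, which encodes a transmembrane regulator of the pathway, starvation had 33.4, 42.4 and 41.9 FPKM, 25 µM bortezomib 8.36, 7.45 and 7.02 FPKM, rpn-6 RNAi 5.31, 4.62 and 5.76 FPKM and controls 9.95, 9.80 and 11.2 FPKM. It rose by 1.82 in starvation (SE 0.14, adjusted p = 6e-08, limma) and fell by 0.86 in rpn-6 RNAi (adjusted p = 0.00011), and neither group overlapped the controls. Of 64 hedgehog-related genes tested, a family made largely in the epidermis, 35 rose and 6 fell in starvation, 36 and 5 in fluphenazine, 18 and 4 in cantharidin, 24 and 6 in 25 µM bortezomib, 1 and 2 in 10 µM bortezomib and 11 and 2 in rpn-6 RNAi. Beyond starvation and fluphenazine the rises are below the share of all genes.

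**Figure D5:**
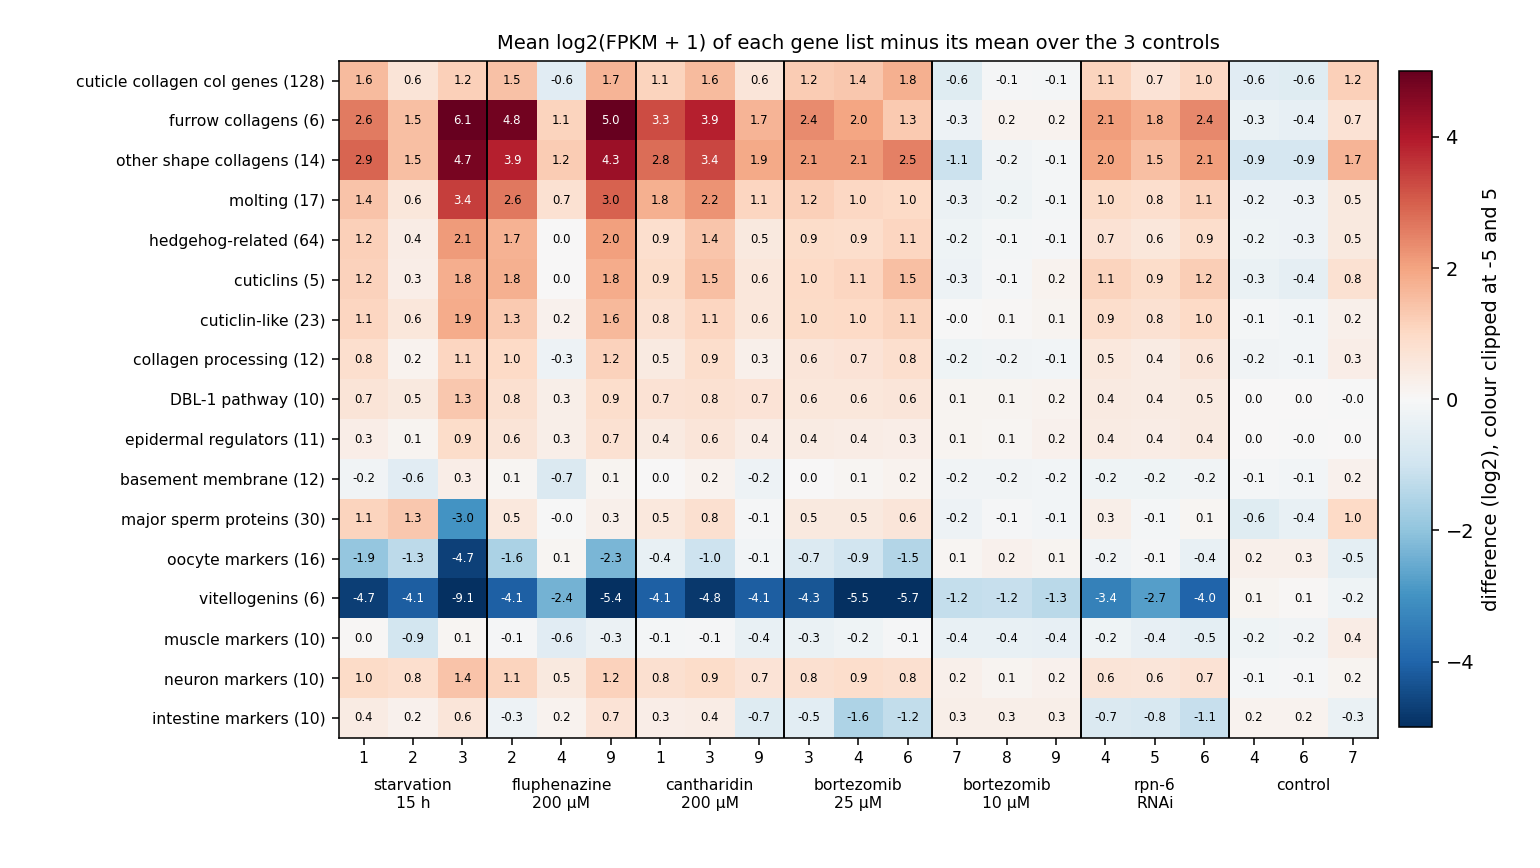
Mean log2(FPKM + 1) of 17 gene lists in each of the 21 libraries minus the mean over the 3 controls, with the number of genes tested in brackets and colour clipped at -5 and 5. The furrow, other shape and molting lists are highest in starvation 3, at 6.11, 4.73 and 3.44, and vitellogenins are below control in every treated library. Control 7 is above controls 4 and 6 in every list but the epidermal regulators, DBL-1 pathway, oocyte markers, vitellogenins and intestine markers.

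Oocyte and sperm markers also set some of the same libraries apart. The intestine markers did so for control 7, while fluphenazine 4 lay between its partners. Their mean relative to controls was 0.42, 0.21 and 0.61 in starvation 1, 2 and 3 and -0.25, 0.18 and 0.68 in fluphenazine 2, 4 and 9. In controls 4, 6 and 7 it was 0.16, 0.187 and -0.347. The muscle markers had -0.2, -0.184 and 0.384 there, and the neuron markers -0.0979, -0.0538 and 0.152. All 16 oocyte markers fell in starvation, and their mean stood at -1.93, -1.31 and -4.66 relative to controls in starvation 1, 2 and 3, at -1.57, 0.11 and -2.27 in fluphenazine 2, 4 and 9, and at 0.24, 0.25 and -0.49 in controls 4, 6 and 7. The summed level of the oocyte markers was 278.7 to 3602 FPKM in starvation and 5426 to 8441 FPKM in controls. Summed vitellogenins, the yolk proteins of the adult intestine, were at 12.2 to 2505 FPKM in starvation, 385.5 to 863.8 FPKM in 25 µM bortezomib, 3455 to 3962 FPKM in 10 µM bortezomib and 6896 to 8501 FPKM in controls. Summed major sperm protein transcripts were at 911.2 FPKM in starvation 3, against 16110 and 18500 FPKM in starvation 1 and 2, and at 14640 FPKM in control 7, against 4925 and 5746 FPKM in controls 4 and 6. Of 6 vitellogenins, 5 fell in starvation, 4 in each of fluphenazine, cantharidin, 25 µM bortezomib and rpn-6 RNAi, and 0 in 10 µM bortezomib (2 unadjusted). Of 30 major sperm proteins, 1 rose in 25 µM bortezomib and 0 were called in the 5 other treatments by limma (1 higher in fluphenazine unadjusted, 0 in the others). Of 10 neuron markers, 8 rose in starvation, 8 in fluphenazine, 9 in cantharidin, 8 in 25 µM bortezomib and 7 in rpn-6 RNAi, and 0 were called in 10 µM bortezomib (1 higher unadjusted). Of 10 intestine markers, 4 rose and 2 fell in starvation, 2 and 1 in fluphenazine, 2 and 2 in cantharidin, 2 and 5 in 25 µM bortezomib, 1 and 0 in 10 µM bortezomib and 1 and 6 in rpn-6 RNAi. Of 10 muscle markers, 1 rose and 1 fell in starvation, and 2, 3, 3, 3 and 4 fell in fluphenazine, cantharidin, 25 µM bortezomib, 10 µM bortezomib and rpn-6 RNAi, where 0 rose (0 also unadjusted). The shares of all genes called lower were 18.4%, 9.39%, 5.96%, 11.1%, 3.24% and 8.81% in starvation, fluphenazine, cantharidin, 25 µM bortezomib, 10 µM bortezomib and rpn-6 RNAi. The part of these tissues in the levels of the col genes was not tested.

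Outside the family, the genes whose 21 values followed the mean log2 level of the members most closely were ttr-14 (r = 0.973), C02E7.6 (r = 0.970), Y47D7A.13 (r = 0.970), cnp-2 (r = 0.967) and ram-2 (r = 0.964), chosen by that r alone over the 21 libraries. For ttr-14 the values were 301.7, 123.7 and 166.7 FPKM in starvation, 240.1, 30.4 and 351.2 FPKM in fluphenazine, 190.6, 246.6 and 317.5 FPKM in 25 µM bortezomib, 41.4, 46.4 and 57.3 FPKM in 10 µM bortezomib and 36.9, 33.3 and 138.5 FPKM in controls. It too was high in control 7 and low in fluphenazine 4.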

How the data were processed

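Whole-worm RNA was taken up in Trizol, cleaned on RNeasy columns and sequenced as stranded mRNA libraries, per the labels' protocols. The authors deposited 1 table of FPKM values for 21 libraries and 46254 gene IDs. CASAVA and Cufflinks are named in the submitters' processing notes, with no version. For the genome build, read totals and use of strand in counting nothing is stated, which leaves the text without coordinates or intervals for counting error. Column sums ran from 938941 to 1036350 FPKM. FPKM are scaled to the library total, so a few abundant genes can shift all others.

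WormBase IDs were joined to symbols through an annotation table of release 115 (43200 IDs matched, 3054 did not), used also for chromosome numbers, neighbours and overlaps. Genes that reached 1 FPKM in 3 or more libraries were tested on log2(FPKM + 1) with limma 3.58.1 (R 4.3.3; lmFit and eBayes with trend), with 1 mean per group in 1 fit of all 21 libraries. The fit had 14 residual and 2.01 prior degrees of freedom. The two-sided p-values were adjusted by Benjamini-Hochberg over 17492 genes, and 8 comparisons were made. The fit was tested on simulated data. Tables and figures used Python 3.11.15, pandas 2.3.3, numpy 2.4.6 and matplotlib 3.10.9. Replicate numbers are those of the titles, and in those of the bortezomib libraries the first digit was taken for the replicate and the rest for the dose.

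The members and all gene lists were chosen with earlier results of these data known. Genes were named by a rule: 13 chosen collagens, the 8 highest by mean, the 4 largest rises and falls per comparison without overlap between groups, those called in both directions, those of the largest and smallest range and those next to the limit. From each other list, up to 3 called genes in the commoner direction and 2 in the other were open to naming per comparison, by size of change, and the 5 genes most like the members' mean were named. Genes outside it are marked as picked after their values were seen, as col-42, col-83, col-98 and col-103 also were. The same holds for the neighbours col-62, col-73, col-167, col-168, col-169, col-170 and col-184. Alternatives were another pseudocount, 2 other filters, another scaling, array weights, fits of 2 groups, a block for the replicate number, leaving out every library in turn and 3 libraries left out together. Same-numbered libraries of the groups that share numbers 4 and 6 did not deviate together (r from -0.263 to 0.0541 over genes), so the numbers were not taken as pairs.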

Additional observations from a re-analysis of the deposited data

How the results depend on the processing

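Counts of called col genes are given as higher and lower. Array weights moved them to 90 and 26 in fluphenazine, 87 and 12 in cantharidin, 23 and 16 in 10 µM bortezomib, 87 and 17 in rpn-6 RNAi and 47 and 10 in 25 µM bortezomib against rpn-6 RNAi, and the lower counts to 8 in 25 µM bortezomib and 5 between the doses. Leaving out control 7, starvation 3 and fluphenazine 4 together gave 86 and 26 in fluphenazine, 83 and 17 in cantharidin, 80 and 19 in rpn-6 RNAi and 48 and 8 in 25 µM bortezomib against rpn-6 RNAi, with 10 lower in 25 µM bortezomib, 9 in 10 µM bortezomib and 5 between the doses. Fits of only the 2 groups gave 14 and 2 in starvation, 19 and 9 in cantharidin, 41 and 9 in 25 µM bortezomib, 1 and 8 in 10 µM bortezomib and 49 and 8 in 25 µM bortezomib against rpn-6 RNAi, with 1 higher in fluphenazine, 18 lower in rpn-6 RNAi and 5 lower between the doses. Median-of-ratios scaling gave 26 lower in fluphenazine, 5 in cantharidin, 5 in 25 µM bortezomib and 2 in 10 µM bortezomib. With no filter 1 was higher in 10 µM bortezomib, 0 lower between the doses and 6 lower in 25 µM bortezomib against rpn-6 RNAi. The filter at 5 FPKM, which removes low members, left 0 lower in cantharidin, in 10 µM bortezomib and in 25 µM bortezomib against rpn-6 RNAi. A pseudocount of 0.1 left 0 lower in 10 µM bortezomib and between the doses, and 4 higher in 25 µM bortezomib against rpn-6 RNAi. The cause of these moves was not tested.

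With a replicate block on the shared numbers 4 and 6 the counts were 90 and 9 in 25 µM bortezomib, 86 and 12 in rpn-6 RNAi and 9 and 6 between these groups. A library whose number is not shared has a block of its own and adds nothing to the difference. The control that resembles treated libraries is among those that drop out in this way. These counts thus rest on 2 pairs of libraries, with few residual degrees of freedom. No paired analysis was possible because fewer than 2 replicate numbers are shared between the bortezomib doses, or between control and each of cantharidin, fluphenazine, starvation and 10 µM bortezomib. With 1 library left out in turn the higher and lower counts ran from 26 to 71 and 5 to 21 in starvation, 4 to 71 and 8 to 25 in fluphenazine, 3 to 62 and 1 to 15 in cantharidin, 29 to 78 and 2 to 15 in 25 µM bortezomib, 0 to 0 and 1 to 10 in 10 µM bortezomib, 15 to 54 and 1 to 20 in rpn-6 RNAi, 27 to 85 and 0 to 5 between the doses, and 2 to 15 and 3 to 5 in 25 µM bortezomib against rpn-6 RNAi. Of 149 called changes of named members, 48 kept direction and call in all these alternatives, the rest lost the call in at least 1, and 0 changed sign.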
